A study of Mus musculus with 2 samples.

Results

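The interferon response genes and the interferon regulatory factors (IRFs) were examined as a set of 50 named genes in Vγ6 γδ T cells. The set holds 29 targets of type I interferon, 9 GTPases best known for induction by interferon gamma, 8 IRFs and the 4 chains of the type I and type II interferon receptors. Members were taken by gene symbol from the array's annotation, whatever their values, from a list chosen with earlier results of these data known. Of the 50, 47 had a row that carried their symbol alone, out of 30142 genes with such a row. Gbp6 and Ifi27 were read from a row that also names a related gene, and no array value was read for Ifi44. Interferons are secreted alarm signals: type I interferons act through the receptor chains IFNAR1 and IFNAR2, and interferon gamma through IFNGR1 and IFNGR2. Both receptors use JAK kinases and STAT proteins, and the IRFs extend the signal to genes whose promoters carry interferon response elements. In the thymus, a tonic interferon signal is known to reach developing T cells without infection.

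Antibody-stained thymus cells of newborn C57BL/6 mice, at an age of 0 days, were sorted by flow cytometry. One group was MHC class II KO, without the surface molecules that show peptides to CD4 T cells, and the other was WT. Each group was 1 array, called the KO array and the WT array below, and nothing could be tested or given an error. The sources used here do not name the disrupted class II gene or say whether animals were pooled. All values are log2 signals, and a difference is the KO array minus the WT array. Signals of different genes come from different probes and are not ranked against each other.

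Of 65956 rows, 26004 passed the background of the KO array and 25902 that of the WT array. The background was set from olfactory receptor genes and lay at 5.86 on the KO array and 5.94 on the WT array. Genes that passed on either array, 14494 in all, had a median difference of 0.04. For 160 genes with 2 different rows above background, the gap between the differences of the rows had an SD of 0.24. It is the only measure of technical spread here, and it leaves out any error that both rows of a gene share on an array. The class II gene H2-Ab1 had a signal of 6.67 on the KO array, against 7.68 on the WT array. H2-Eb1 had 5.98 on the KO array and 6.95 on the WT array, and H2-Aa was above background on the WT array alone. All 7 markers of Vγ6 γδ T cells with a row passed on both arrays, with a median difference of 0.03. Among them Tcrg-V6 had 12.33 on the KO array and 12.64 on the WT array, and the cytokine gene Il17a differed by -1.57. Of 15 double positive and αβ thymocyte markers, genes of cells that a thymus sort can carry along, 13 were above background on at least 1 array. Of these, 7 were past 1.5-fold upward, where 3.74% of all genes were, and Ccr9 was past it downward, where 2.66% were. The median difference was 0.74, and Cd8b1, a coreceptor gene, differed by 1.38. Dntt, the marker furthest apart, was above background on the KO array alone. It had 7.82 there and 5.31 on the WT array, at least 3.68-fold. Ptcra also passed on the KO array alone, at 6.43 there and 5.84 on the WT array, at least 1.41-fold. The summed linear signal of the list was 154965.5 on the KO array and 138622.1 on the WT array. Most of it was Cd3e, a gene of all T cells, with 119507.4 on the KO array and 122516.8 on the WT array. The other 13 markers with a row summed to 35458.1 on the KO array and 16105.3 on the WT array, or 2.2-fold. Rag2 was not above background on either array. In bulk RNA, more cells of a type and more RNA per cell cannot be told apart, and the part of these cells in the results below was not tested.

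The promoters of the GTPase genes are shown first, because those genes moved one way together and because their promoters share a motif. The RefSeq promoter table of build GRCm38.p6 held 37 of the 50 members, with 250 bases before and 50 after each transcription start. Searched on both strands were the core of the interferon-stimulated response element, read as GAAA, any 2 bases and GAAA, which IRF proteins are known to bind, and the core of the gamma-activated site, TTCNNNGAA, which STAT dimers are known to bind. Of the 6 GTPase genes in the table, 6 had the first motif in a promoter, as did 11 of 19 type I targets, or 57.9%, and 3.99% of all 27025 genes there. The second was in 3 of the 6 and in 9.55% of all genes. Gbp4 and Gbp6, the GTPase members with the largest differences, have no entry in the table. The last 110 bases before the start are given 5′ to 3′ with every match in capitals. For contrast, Isg15, a type I target that hardly differed between the arrays, is shown over the same stretch. Irf8, the IRF with the largest difference, is shown over a shorter stretch further upstream, where its gamma-activated site cores lie.
Igtp, chr11:58199446-58199555, plus strand: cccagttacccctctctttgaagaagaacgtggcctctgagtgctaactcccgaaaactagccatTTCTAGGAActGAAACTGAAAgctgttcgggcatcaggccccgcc
Irgm2, chr11:58214867-58214976, plus strand: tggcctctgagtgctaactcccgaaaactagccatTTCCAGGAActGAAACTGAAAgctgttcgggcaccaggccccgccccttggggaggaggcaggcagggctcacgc
Irgm1, chr11:48871421-48871530, minus strand: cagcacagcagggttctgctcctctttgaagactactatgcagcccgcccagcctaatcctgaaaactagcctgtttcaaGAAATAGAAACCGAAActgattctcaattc
Gbp7, chr3:142530226-142530335, plus strand: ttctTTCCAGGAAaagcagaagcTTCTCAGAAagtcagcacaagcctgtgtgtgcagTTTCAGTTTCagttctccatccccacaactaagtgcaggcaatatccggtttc
Gbp3, chr3:142559934-142560043, plus strand: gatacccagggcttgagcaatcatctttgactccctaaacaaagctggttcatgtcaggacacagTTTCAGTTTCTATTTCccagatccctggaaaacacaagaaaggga
Gbp2, chr3:142620553-142620662, plus strand: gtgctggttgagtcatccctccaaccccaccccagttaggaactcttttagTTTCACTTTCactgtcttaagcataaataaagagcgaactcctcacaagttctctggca
Isg15, chr4:156200819-156200928, minus strand: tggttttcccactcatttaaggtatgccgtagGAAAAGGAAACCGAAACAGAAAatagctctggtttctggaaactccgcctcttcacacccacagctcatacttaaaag
Irf8, chr8:120736178-120736237, plus strand: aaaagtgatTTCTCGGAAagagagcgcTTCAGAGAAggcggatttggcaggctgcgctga

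In Igtp and Irgm2, neighbours on chromosome 11, the gamma-activated site core is followed after 2 bases by the response element core. Gbp7 has 2 gamma-activated site cores upstream of its response element core, and Isg15 has 3 overlapping response element cores. Irf8 has 2 gamma-activated site cores and no response element core in this window. Across the 45 promoters of members, the motifs overlapped each other in 1, and across all 32851 promoters in 24. The member was Bst2, which differed by -0.25. A match is a run of letters and not a measured binding site. Among type I targets above background, the 11 with the response element core had a median difference of 0.07, and the 6 without it 0.12. The promoter of Samd9l, the type I target with the largest difference, held neither motif.

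Across the whole set, 43 of the 47 members with their own row were above background on at least 1 array. Mx2 passed on the KO array alone. Mx1, Oas2, Oasl1 and Iigp1 were not above background on either, so no fold is given for them. Of the 43, 31 had a difference above 0, or 72.1%, where 56.4% of all 14494 genes did. Past 1.5-fold upward were 7 members, or 16.3%, where 3.74% of all genes were. No member was past 1.5-fold downward, where 2.66% of all genes were. At a lower threshold, a log2 difference of 0.32, 18 members were higher, where 13.8% of all genes were, and 3 were lower, where 8.95% were. The median difference of the 43 was 0.26, beside 0.04 for all genes. The classes did not share this shift equally, as the plot of signals by gene shows.

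**Figure D1:**
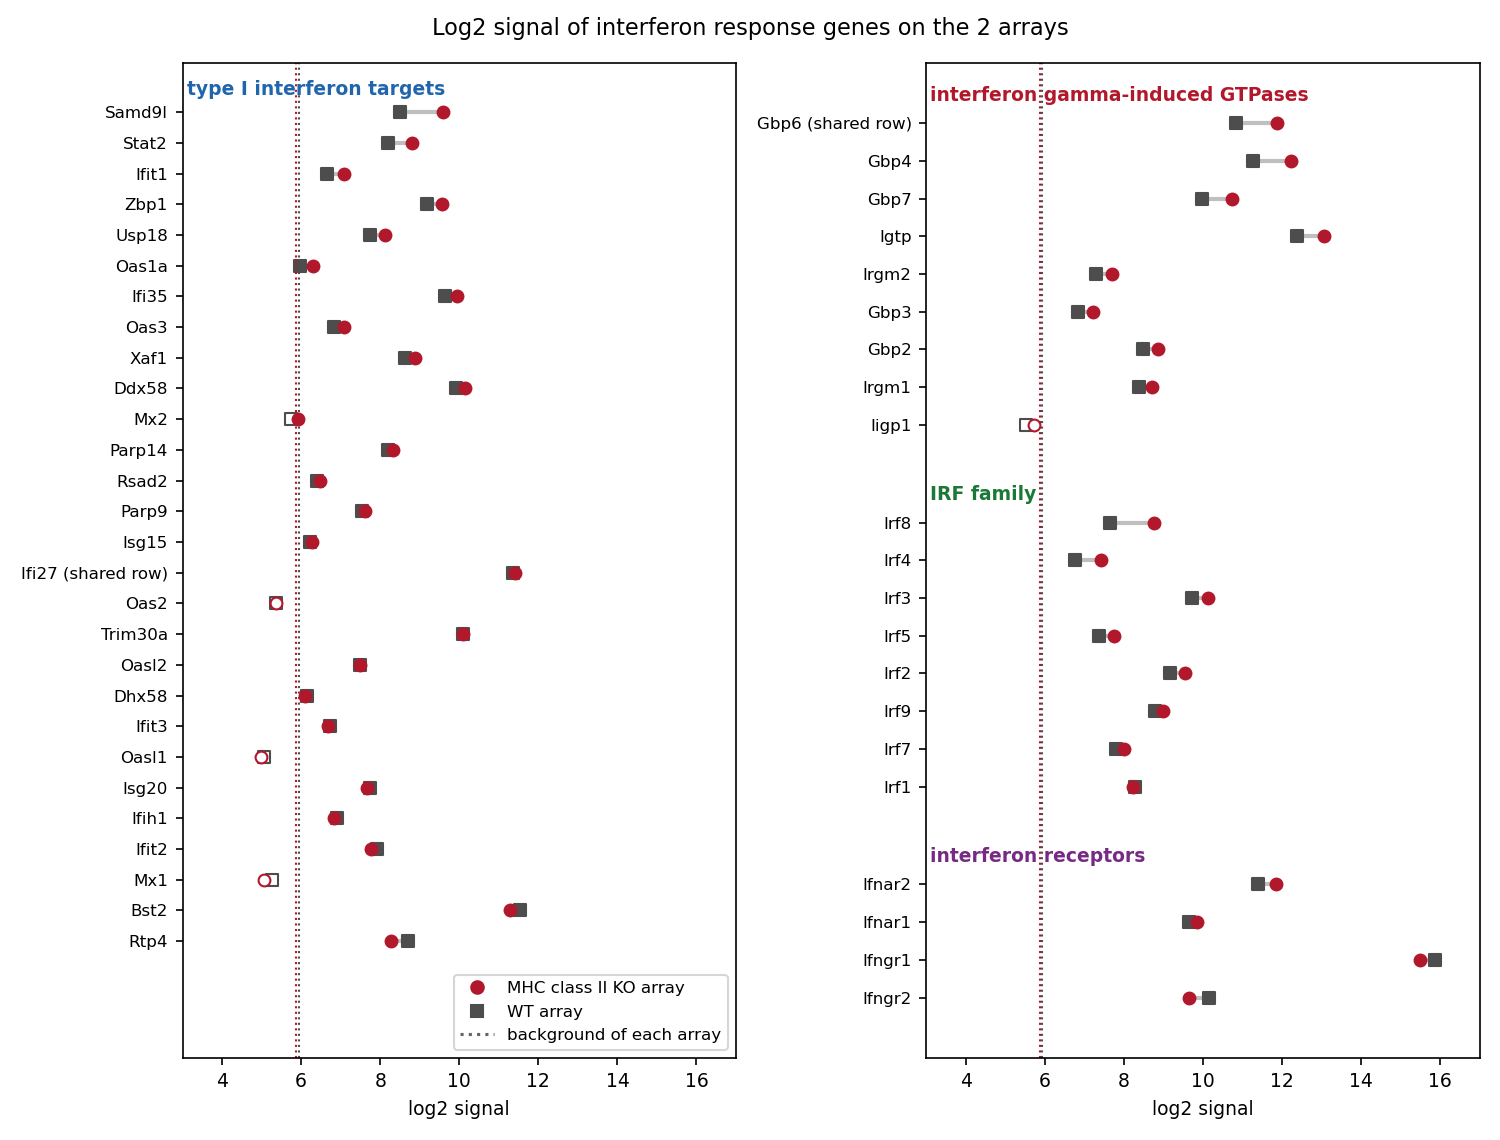
Log2 signal (x axis) of 49 genes of the set on the MHC class II KO array (red circles) and the WT array (grey squares), 1 array each, ordered within each class by the difference. Open symbols are under the background of their array (dotted lines). The 8 GTPases above background sit further right on the MHC class II KO array, while both interferon gamma receptor chains sit further left.

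The interferon gamma-induced GTPases were higher on the KO array in every measured case. They comprise the guanylate-binding proteins (GBPs) and the immunity-related GTPases (IRGs), which attack the membranes around intracellular microbes. All 7 with their own row above background had a difference above 0, where 56.4% of all genes did, from 0.33 to 0.96 with a median of 0.41. Past 1.5-fold were 3 of them, or 42.9%, where 3.74% of all genes were. Gbp4, a guanylate-binding protein, had 12.24 on the KO array and 11.27 on the WT array, a difference of 0.96 or 1.95-fold. Only 0.856% of all genes kept had a higher difference than Gbp4. The row shared by Gbp6 and Gbp10 gave 11.88 on the KO array and 10.82 on the WT array, a difference of 1.05. These genes are close copies, so the row cannot say which of the pair it measured.

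Gbp7, another GBP, had 10.72 on the KO array and 9.98 on the WT array, 1.67-fold apart. Igtp, which encodes the immunity-related GTPase Irgm3, had 13.07 on the KO array and 12.38 on the WT array, 1.62-fold apart. These GTPases stood apart from the others of their class, whose gaps were smaller. Irgm2 and Irgm1, regulators of the other IRG proteins, differed by 0.41 and 0.33. Gbp2 and Gbp3 differed by 0.37 each.

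Further GTPases of the same families were listed with earlier results of these data known, so they are no independent support. They gave a like picture. Of 13 listed, 5 had their own row and 4 of these were above background. Each of the 4 was higher on the KO array, where 56.4% of all genes were, by a median of 0.85. Past 1.5-fold were 3, where 3.74% of all genes were. Gbp8 had 11.67 on the KO array and 10.61 on the WT array, a difference of 1.07. Gbp11 and Gvin1, a very large interferon-inducible GTPase, differed by 0.92 and 0.78, and Gbp9 by 0.57. The 2 rows shared by the T cell-specific GTPase genes Tgtp1 and Tgtp2 differed by 0.71 and 0.53. Ifi47, the IRG gene also called Irgd, shares a row with Olfr56 that was above background on the KO array alone, and it differed by 0.18. The row of Gbp2b and Gbp5 was under background on both arrays.

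**Figure D2:**
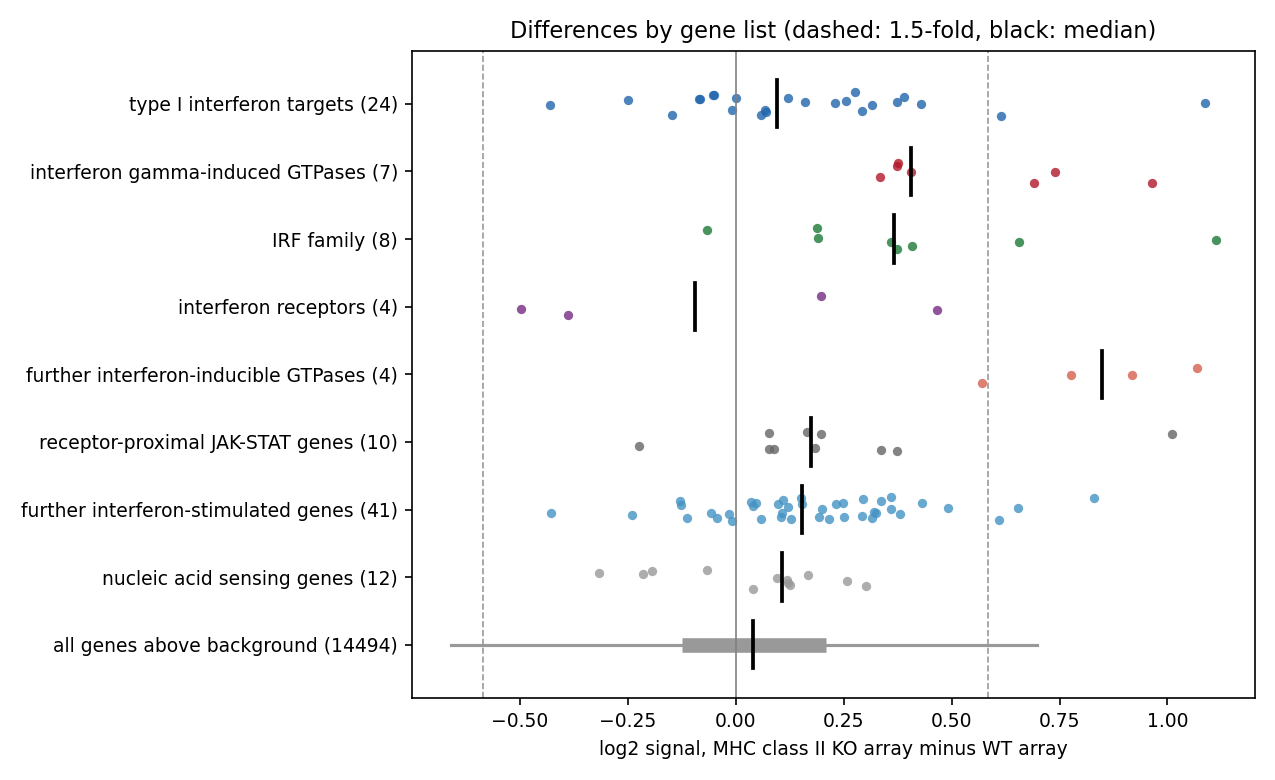
Difference in log2 signal, MHC class II KO array minus WT array (x axis), for each gene with its own row above background (dots), by list, with the number of genes in brackets. Black bars are medians, dashed lines mark 1.5-fold, and for all 14494 genes the thick bar spans the middle 50% and the thin line the middle 95%. The dots of both GTPase lists all lie to the right of 0.

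Position along the chromosome was not used to choose the genes. In RefSeq order, Gbp8, Gbp9, Gbp4, Gbp10 and Gbp6 lie side by side on chromosome 5, and their 4 rows had a median difference of 1.01. The 7 rows above background among the 5 genes on either side had a median of 0.12. Lrrc8b and Lrrc8c, subunits of volume-regulated anion channels and the nearest genes on the side of Gbp6, were also higher, by 0.69 and 0.76. Lrrc8d, further along, differed by -0.20. The cluster on chromosome 3 with Gbp7, Gbp3 and Gbp2 had a median of 0.37 over 3 rows, and its flanks 0.17 over 5 rows. The IRG genes of chromosome 11 lie in separate groups. In the stretch that spans Irgm1, the Tgtp genes and Ifi47, 8 rows had a median of 0.54, with Ifi47 the lowest and a row of Psme2b, which is no GTPase gene, among them. Only 1 flanking row there, that of Trim41, was above background, and it differed by -0.03. Gm12250, listed by RefSeq with the synonym Irgb10 and named after its value was seen, lies next to Igtp. It had 8.51 on the KO array and 7.11 on the WT array, or 2.64-fold, the largest difference of these 4 regions.

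**Figure D3:**
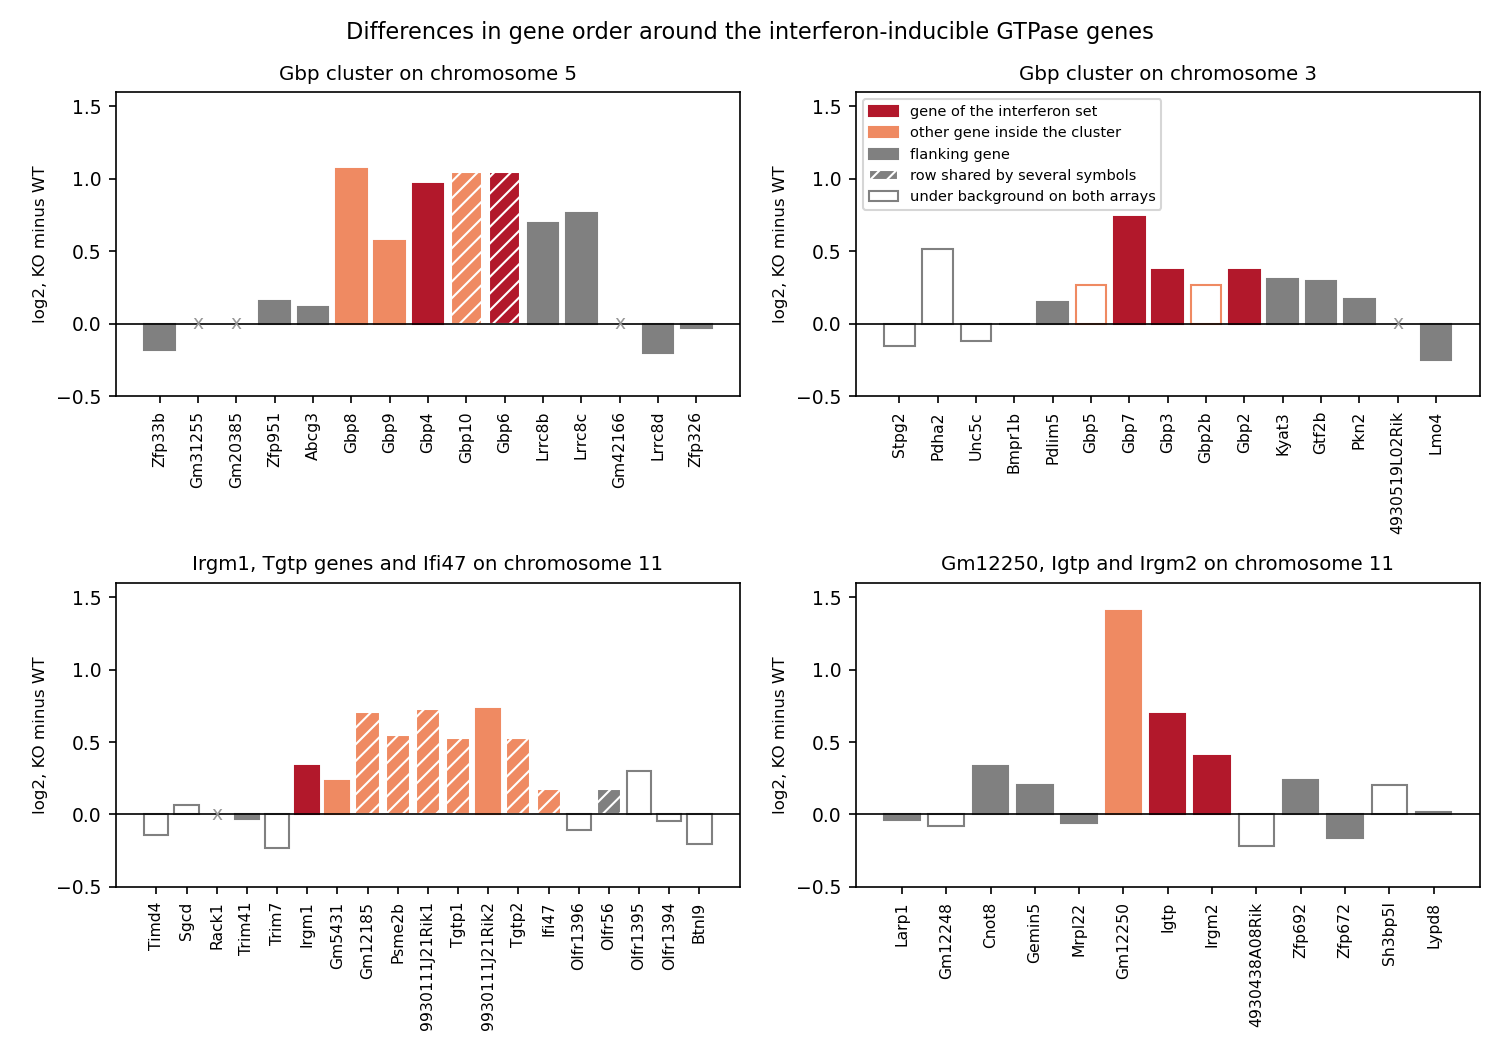
Difference in log2 signal, MHC class II KO array minus WT array (y axis), for protein-coding genes in RefSeq order around 4 groups of GTPase genes, with 5 flanking genes on each side. Open bars were under background on both arrays, hatched bars come from a row that names several genes, and x marks a gene without a value here. The bars inside the groups are all above 0, Ifi47 (0.18) and Olfr56 show the same shared row, and on chromosome 5 the neighbours Lrrc8b (0.69) and Lrrc8c (0.76) are high as well.

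The targets of type I interferon were split between small differences of both signs. Of 27 with their own row, 24 were above background on at least 1 array, 15 had a difference above 0, 8 below 0 and 1 exactly 0. The 15 are 62.5%, where 56.4% of all genes were above 0. Their median was 0.09, beside 0.04 for all genes. Samd9l, which encodes an antiviral protein that restrains translation, stood apart from the rest with 9.60 on the KO array and 8.51 on the WT array, or 2.13-fold. Stat2, the STAT protein that pairs with IRF9 in the type I pathway, had 8.81 on the KO array and 8.20 on the WT array, or 1.53-fold. They were the only members of this class past 1.5-fold, or 8.33%, where 3.74% of all genes were, and 0.614% and 3.50% of all genes kept had a higher difference.

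Of the effector genes that serve as standard readouts of type I interferon, Isg15 and Rsad2 showed little difference and Ifit1 a larger one. Isg15, a ubiquitin-like modifier, had 6.27 on the KO array and 6.21 on the WT array, close to background on both. Rsad2, the gene for the antiviral enzyme viperin, had 6.47 on the KO array and 6.40 on the WT array. In the Ifit family, whose proteins bind foreign RNA, Ifit1 differed by 0.43 and Ifit2 and Ifit3 by -0.15 and -0.05. Ifit1 stood apart from its relatives by more than the SD of 0.24 between rows of a gene. That SD comes from the same arrays and holds no variation between animals, and 8.27% of all genes kept had a higher difference than Ifit1.

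The oligoadenylate synthetase genes, which switch on RNA decay, included Oas1a at 0.32, Oas3 at 0.28 and Oasl2 at -0.01. Usp18, which removes ISG15 and dampens IFNAR2 signalling, differed by 0.37. The nucleic acid sensor genes gave 0.39 for Zbp1, 0.23 for Ddx58 (RIG-I), -0.08 for Ifih1 (MDA5) and -0.05 for Dhx58 (LGP2), whose sign turned to 0.00 or just above under quantile or loess scaling. None of these reached 1.5-fold.

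Among the remaining targets, Ifi35 differed by 0.29, the apoptosis factor gene Xaf1 by 0.26, and the ADP-ribosyltransferase genes Parp14 and Parp9 by 0.12 and 0.07. Isg20, an exonuclease gene, differed by -0.08. Trim30a, which encodes an E3 ligase, had equal values on the arrays, as did 106 of the genes kept in all, and differed by -0.04 after centring. At the low end, Rtp4, a chaperone gene for membrane receptors, had 8.28 on the KO array and 8.71 on the WT array, a difference of -0.43. Bst2, the gene for tetherin, which holds virus particles at the cell surface, had 11.28 on the KO array and 11.53 on the WT array. The row shared by Ifi27 and Ifi27l1 differed by 0.03. Mx2 was measured at 5.91 on the KO array and at 5.75, under background, on the WT array, and no fold is given for it.

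The IRF genes were mostly higher on the KO array. All 8 were above background on both arrays, and the median difference was 0.37. Above 0 were 7 of 8, or 87.5%, where 56.4% of all genes were, and past 1.5-fold were 2, where 3.74% of all genes were. Irf8, a factor of lymphoid and myeloid development, had 8.76 on the KO array and 7.65 on the WT array. That is 2.16-fold, the largest difference of the set, and 0.559% of all genes kept had a higher one. At the 2-fold threshold Irf8 and Samd9l were the only members with their own row that passed, where 0.738% of all genes were past it upward and 0.807% downward. Irf4, which T cells switch on after antigen receptor signalling, had 7.43 on the KO array and 6.77 on the WT array, or 1.58-fold.

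Dendritic cells and macrophages also express Irf8, and their markers were read beside it. Of 19 listed markers, 7 were above background on at least 1 array, with a median difference of 0.08. The summed linear signal of all rows of the list was 17253.6 on the KO array and 16409.3 on the WT array. Without Cst3, its brightest gene, it was 4495.9 on the KO array and 4678.9 on the WT array. Most of that remainder was Bst2, also a type I target of the set, with 2493.2 on the KO array and 2962.1 on the WT array. The gap of Bst2 was wider than that of the remainder, so the other genes together summed higher on the KO array. The defining markers Itgax, Csf1r, Adgre1, Xcr1, Clec9a, Batf3, Flt3 and Zbtb46 were not above background on either array. Siglech and Tcf4, genes of plasmacytoid dendritic cells, were above background on both arrays. Siglech had 6.49 on the KO array and 6.46 on the WT array, and Tcf4 had 6.54 on the KO array and 6.65 on the WT array. Lyz2, a myeloid lysozyme gene, was above background on the KO array alone, at 6.23 there and 5.86 on the WT array. Cd68, a lysosomal protein gene, was the 1 marker at least 1.5-fold higher, by 0.91. Of 10 B cell markers, 7 including Pax5, Ms4a1 and Cd79a were not above background, while Ighm differed by 1.41 and Cd79b by 0.11. Of 8 natural killer and innate lymphoid markers, 3 were above background on at least 1 array. Tbx21 differed by 1.17, Klrb1c by 0.16 and Klrd1 by -0.47. Of 8 mature αβ and regulatory T cell markers, 5 were above background, with a median difference of 0.15. Among them Il2ra differed by 1.19 and Ctla4 by -3.46. Of 10 thymic epithelial markers, 5 were above background, with a median of 0.05. The part of any of these cells in the Irf8 difference was not tested.

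The IRFs that act in the interferon pathway itself differed less. Irf3, which starts interferon transcription after nucleic acid sensing, had 10.13 on the KO array and 9.72 on the WT array. Irf7, which amplifies it and is itself an interferon target, differed by 0.19. Irf9, the DNA-binding partner of STAT2, also differed by 0.19, Irf5 by 0.37 and Irf2, a repressor of interferon targets, by 0.36. Irf1, a primary target of interferon gamma, had 8.22 on the KO array and 8.29 on the WT array. Its difference of -0.07 was the only negative one of the family, and became 0.02 when averaged with a further Irf1 row that was under background on both arrays.

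The interferon receptor genes split by receptor. Ifnar2 had 11.85 on the KO array and 11.38 on the WT array, a difference of 0.47. Ifnar1 differed by 0.20, in the same direction. Both chains of the interferon gamma receptor went the other way. Ifngr1, the ligand-binding chain, had 15.48 on the KO array and 15.87 on the WT array, a difference of -0.39. Ifngr2, the signalling chain, had 9.65 on the KO array and 10.15 on the WT array, a difference of -0.50, and 4.49% of all genes kept had a lower one. None of the 4 chains reached 1.5-fold.

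**Figure D4:**
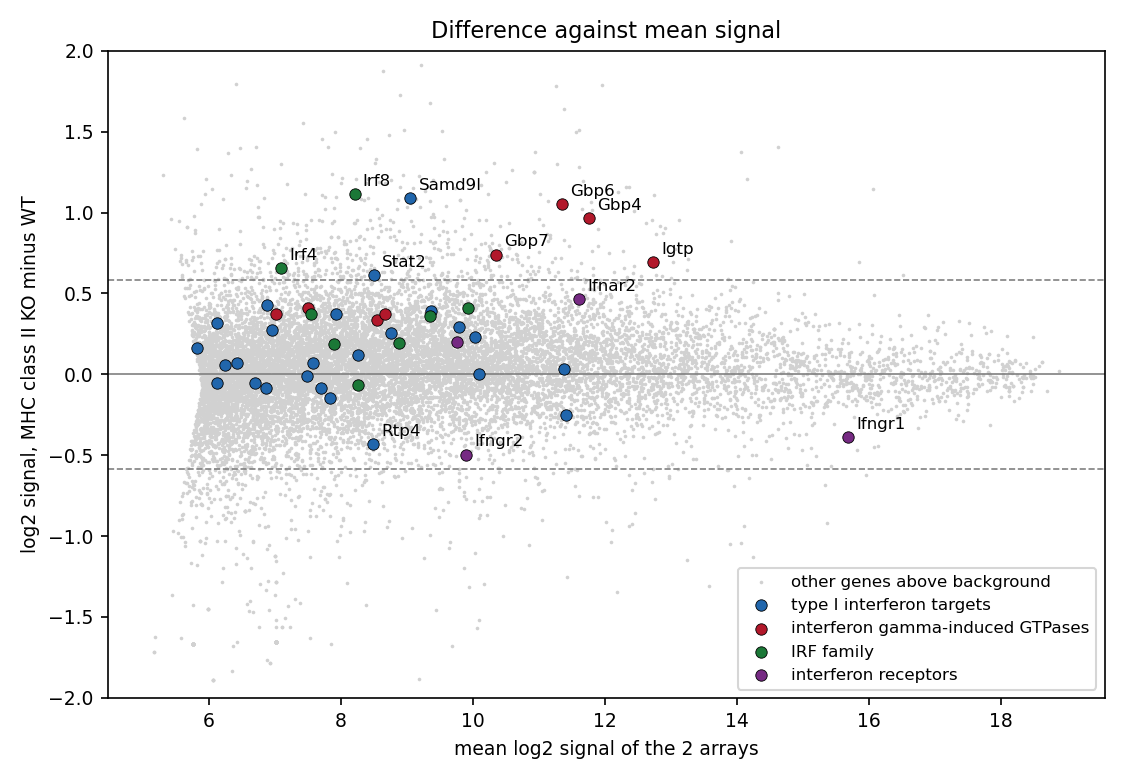
Difference in log2 signal, MHC class II KO array minus WT array (y axis), against the mean log2 signal of the arrays (x axis), for genes above background on at least 1 array. Members of the set are coloured by class, dashed lines mark 1.5-fold, and 15 genes with differences beyond 2 lie outside the plot. Irf8 (1.11) and Samd9l (1.09) are the highest members and Ifngr2 (-0.50) the lowest.

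The genes for the interferons themselves were hardly detected. Of 21 listed, 18 had their own row and 16 of these, Ifng and Ifnb1 among them, were not above background on either array. Ifna4 had 6.59 on the KO array and 6.79 on the WT array, and Ifnl3 had 6.07 on the KO array and 6.06 on the WT array. Behind the receptors, 10 of 12 JAK-STAT genes were above background, with a median of 0.17 and 9 of them above 0, where 56.4% of all genes were. That list also holds Usp18, a type I target counted above. Ptpn6, the phosphatase SHP-1, which restrains receptor signalling, had 12.95 on the KO array and 11.94 on the WT array, or 2.01-fold, the 1 gene of that list past 1.5-fold. The kinase genes Tyk2, Jak1 and Jak2 differed by 0.34, 0.18 and 0.08, and Stat3 by -0.22.

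A wider list of 52 interferon-stimulated genes had 41 above background, 32 with a difference above 0 (78.0%, where 56.4% of all genes were) and a median of 0.15. Past 1.5-fold upward were 3, or 7.32%, where 3.74% of all genes were, and none was past it downward. They were Ifi204, a DNA-binding protein of the p200 family, at 0.83, Phf11b at 0.65 and Shisa5 at 0.61. Of 18 genes of nucleic acid sensing, 12 were above background, with a median of 0.11, and none reached 1.5-fold. The largest sizes were Traf6, a signalling adaptor, at -0.32 and Cgas, the DNA sensor, at 0.30.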

How the data were processed

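Total RNA of 2 sorted samples, 1 MHC class II KO and 1 WT, was amplified and biotin-labelled for whole-transcript GeneChip arrays, per the labels' protocols. The authors deposited linear intensities, 1 for each transcript cluster. RMA and Affymetrix Expression Console 1.4.1 are named for them per the submitters' processing notes, with no variant or settings stated in the sources used here. On the MHC class II KO array 742 rows, and on the WT array 767, lay above the 16-bit scanner ceiling of 65535, so an undescribed step may have widened or narrowed every fold. The number of arrays limits the precision.

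The log2 of each intensity was taken with pandas 2.3.3 and numpy 2.4.6. Symbols came from the platform annotation, which can be old. Of 65956 rows, 30604 had 1 symbol, 2146 several and 33206 none, and 827 symbols were updated through the gene identifier in RefSeq (GRCm38.p6). The brightest row stood for a gene. Background on each array was the percentile 95 of the signals of 1228 rows for olfactory receptors. Where a gene passed it on 1 array only, its fold was a lower bound, with the background of the dim array in place of the dim signal. Genes were counted at 1.5-fold. No test was possible with 1 array a group, and no set test was run. Members and lists were chosen with earlier results of these data known. The named genes are all 50 members, list genes past 1.5-fold or the 2 of largest size where none was, up to 3 genes of a marker list with its defining genes, and the checks of the labels. Other genes are named for their place beside them or to describe a pathway. Counting was tested on simulated data. Coordinates are those of RefSeq promoters alone, since the sources used here state no build for the rows.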

Additional observations from a re-analysis of the deposited data

How the results depend on the processing

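Over 14 alternatives, 1 of them chosen after seeing the data, 142 recomputed counts and medians stayed within set limits and 4 did not. The limit was 1.5 times for a count. For a median it was an unchanged sign and a shift under the SD of 0.24 between rows of a gene. That SD exceeds several medians, such as 0.09 for type I targets, so a fall in these registered only as a change of sign. Some alternatives left a median unchanged, as for the IRF family, so the 142 overstates stability. The count of members at least 1.5-fold higher was 7, and 6 after centring, quantile normalization, a loess correction or a background at the 99th percentile. By construction it became 18 at a log2 threshold of 0.32, with 3 lower, and 2 at 2-fold. The median of the interferon genes changed sign, to 0.27, when rows naming several symbols were used, because 1 such row then counts for several genes. The GTPase median ran from 0.37 to 0.55, with a mean of 0.56, and was 0.39 without the Gbp gene of chromosome 5, the alternative chosen later. In the list of further GTPases, that alternative left Gvin1 alone above background, at 0.78. The receptor median stayed below 0, from -0.13 to -0.09, with a mean of -0.06. That of type I targets lay between 0.06 and 0.12, with a mean of 0.15. Of the 43 members kept, 39 held their sign under the 6 alternatives run per gene. Dhx58, Irf1, Mx2 and Trim30a did not, with differences of at most 0.16 in size as reported. No paired analysis was possible because each group has 1 array. Leaving out a replicate was not possible for the same reason. Signal near background limits Isg15, Rsad2, Oas1a and Dhx58.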

Other observations

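The p200 (PYHIN) family, DNA-binding proteins that interferons induce, was looked at after the value of Ifi204 was seen, so it gets no count as support. All 7 rows that name a member were above background on both arrays with differences above 0, where 56.4% of all genes were above 0. Ifi204 had 9.25 on the KO array and 8.42 on the WT array. Ifi209 had 10.65 on the KO array and 9.87 on the WT array, a difference of 0.78. Ifi211 differed by 0.50 and Mndal by 0.25. The row shared by Ifi203 and other gene models differed by 0.30, that shared by Ifi202b and Ifi205 by 0.34, and Aim2, the inflammasome sensor, by 0.04.

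More IRG genes lie beside the Tgtp genes on chromosome 11, and they were also read after the fact. The row of 9930111J21Rik2, which RefSeq lists with the synonym Irgb5, had 10.41 on the KO array and 9.68 on the WT array, a difference of 0.73. Gm5431, with the synonym Irgb9b8, differed by 0.23. A row shared by Psme2 and Psme2b, genes for the interferon gamma-induced proteasome activator PA28 beta, differed by 0.55, another row of the pair by 0.19, and Psme1, for PA28 alpha, by 0.03.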
